A study of Mus musculus with 12 samples.

Results

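The genes described here are 7 keratins of basal and stressed epithelium, Krt5, Krt14, Krt15, Krt6a, Krt6b, Krt16 and Krt17, of 24674 genes measured by RNA-seq. They were selected on their measured levels in these same samples, so their levels and differences are given as a description, with no test of their own. All 7 were found, and none was lost to a filter on low values, because the fit used every gene. Organoids, small 3-dimensional epithelial cultures, were grown from basal cells of wild-type C57BL/6 mouse prostate. They received Vehicle, UK5099, Butyrate or UK5099 + Butyrate (the combination), with 3 samples in each of 4 groups and 12 in all. UK5099 blocks the mitochondrial pyruvate carrier, which admits pyruvate to mitochondria, and butyrate inhibits histone deacetylases. The experiment asked whether the response to the HDAC inhibitor resembles that to the carrier inhibitor, and how they combine. The labels do not say whether replicates came from separate cultures or animals, so spreads and p-values measure the variation between these samples, which may be technical. Depth, recovered from the steps of the deposited values, was between 33251843 and 43498956 fragments per sample. Replicate 1 of UK5099 and replicate 1 of the combination stood apart from the other 2 samples of their groups. On fragments, their chi-square per gene against those samples was 6.30 and 6.52 for UK5099 and 6.65 and 6.34 for the combination, whereas all other pairs within a group lay between 1.93 and 2.65.

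Keratins are the intermediate filament proteins of epithelia. A type II keratin pairs with a type I keratin to build each filament, so the 2 types are usually made together. Krt5 (type II) with Krt14 (type I) is the classical pair of the basal layer, and Krt15 is a further type I keratin of basal cells. Krt6a and Krt6b (type II) and Krt16 and Krt17 (type I) are known as stress keratins because injured or inflamed skin makes them. In the prostate, basal cells carry Krt5 and Krt14, whereas luminal cells carry the simple keratins Krt8 and Krt18.

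The type II members lie on chromosome 15 and the type I members on chromosome 11, all on the minus strand. The deposited table places Krt5 at chr15:101615505-101621333, Krt6a at chr15:101598345-101602742 and Krt6b at chr15:101584458-101588722. It places Krt14 at chr11:100093988-100098374, Krt15 at chr11:100022584-100026754, Krt16 at chr11:100136917-100139728 and Krt17 at chr11:100147043-100151855. These intervals span the whole gene, exons, introns and UTRs included. The submitters' processing notes name the build GRCm39, whereas the study's methods name GRCm38. Of 23913 nuclear genes matched by ID, only 2.18% had the coordinates that GENCODE gives on GRCm38, so these intervals should not be read on that build. No annotation of GRCm39 was used here.

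Krt6a and Krt6b are near copies, which bears on how their reads can be told apart. In the GENCODE M21 transcripts of GRCm38, their coding sequences were 97.8% identical, at 1622 of 1659 aligned bases. Their longest identical coding run held 280 bases, from base 34 to base 313 of both coding sequences. That run is shown because a 50-base read lying within it cannot be assigned to either gene by its own sequence. The samples were sequenced as read pairs, so a mate outside the run may still tell the genes apart.

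Krt6a and Krt6b, identical run: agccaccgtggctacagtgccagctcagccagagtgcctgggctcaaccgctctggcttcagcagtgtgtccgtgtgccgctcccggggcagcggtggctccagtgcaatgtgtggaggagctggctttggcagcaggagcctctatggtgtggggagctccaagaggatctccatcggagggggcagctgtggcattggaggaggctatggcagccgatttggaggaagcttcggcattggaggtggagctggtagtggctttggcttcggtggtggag

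The 60-base coding window in which both genes differ most runs from base 817 to base 876 in each and holds 10 differences. It is shown with the differing bases in capitals. Only gap-free coding windows were searched, so the UTRs were not compared in this way.

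Krt6a: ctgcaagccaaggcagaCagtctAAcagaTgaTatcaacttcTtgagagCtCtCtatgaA
Krt6b: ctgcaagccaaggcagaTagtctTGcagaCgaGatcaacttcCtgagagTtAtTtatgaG

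Of all 50-base stretches of the Krt6b transcript, 44.5% occur in Krt6a, and 50.1% occur in at least 1 other gene. For Krt6a, 49.5% occur in other genes. Krt16 shared 37.6% of its stretches with other genes, including 25.2% with the pseudogene Gm11597 and 12.4% with Krt14. The shares were 14.4% for Krt14, 8.52% for Krt5, 3.99% for Krt17 and 0.666% for Krt15. Below 1000 fragments, 0 of 6 Krt6b values and 0 of 2 Krt16 values were whole fragments within 0.02, so the values of both genes there are fractional estimates.

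Values are TPM, transcript abundances divided by length, which the authors scaled to a total of 1000000 per sample. They behaved as if fragments had been divided by gene span, introns included. TPM are therefore compared here within a gene between samples, and levels are compared between genes only after division by exonic length. Differences are coefficients of a limma fit to log2(TPM + 1), with an SE from that fit. A gene was called at an adjusted p-value below 0.01, by Benjamini–Hochberg over all genes, with an absolute coefficient above 1. In bulk RNA, fewer cells of a type and less RNA per cell cannot be told apart.

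Both keratins of the basal pair were more abundant with UK5099, but only Krt5 was also more abundant with butyrate. Krt5 stood at 1851, 1855 and 1838 TPM in Vehicle and at 4874, 4926 and 4991 TPM with UK5099. It stood at 3119, 3102 and 3235 TPM with butyrate and at 4532, 4497 and 4515 TPM with the combination. The 4 groups did not overlap, and the order was UK5099, combination, butyrate, Vehicle. The Krt5 coefficient was 1.42 ± 0.02 (SE) for UK5099, 0.77 ± 0.02 for butyrate and 1.29 ± 0.02 for both drugs, each against Vehicle.

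Krt14, the type I partner of Krt5, measured 1651, 1687 and 1691 TPM in Vehicle and 4863, 5040 and 5237 TPM with UK5099. It measured 1365, 1375 and 1432 TPM with butyrate and 3779, 3561 and 3583 TPM with the combination. Every butyrate sample was below every Vehicle sample, and every sample with UK5099, alone or combined, was above them. The Krt14 coefficient was 1.59 ± 0.03 for UK5099, −0.27 ± 0.03 for butyrate and 1.12 ± 0.03 for both. The sign of the butyrate coefficient depended on the scaling, and was 0.046 ± 0.034 after median of ratios scaling.

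Krt15, a type I keratin tied to basal progenitor cells in skin, was the most abundant member in Vehicle, at 3055, 3072 and 2959 TPM. It measured 3692, 3524 and 3575 TPM with UK5099, 2394, 2436 and 2449 TPM with butyrate, and 2027, 1869 and 1901 TPM with the combination. In TPM as deposited, all UK5099 samples were above Vehicle, and all samples with butyrate were below it, lowest in the combination. Its coefficients, 0.25 ± 0.03 for UK5099, −0.32 ± 0.03 for butyrate and −0.65 ± 0.03 for both, did not pass the limit of 1. The size of the 2 negative coefficients depends on the scaling. Median of ratios scaling moved the butyrate coefficient of Krt14, of similar size, from −0.27 to 0.046.

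**Figure D1:**
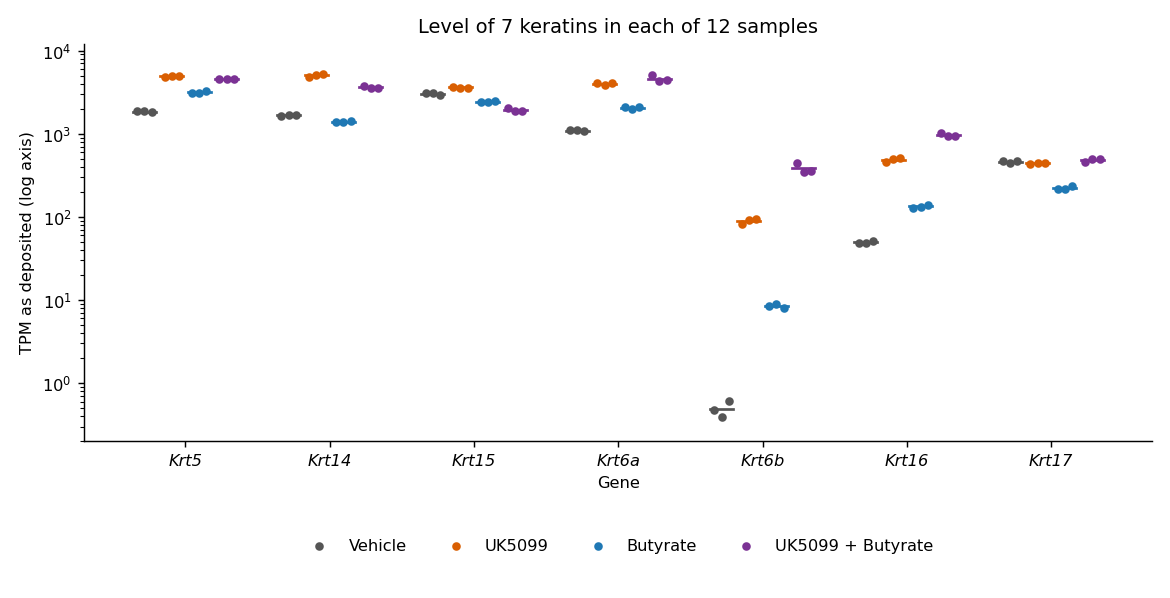
TPM as deposited (log axis) of each of the 7 keratins in each of the 12 samples, with points for samples, short lines for group means and colour for group. Krt6b spans from under 1 TPM in Vehicle to a mean of 384 in the combination, whereas Krt17 is low only with butyrate alone.

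Of the stress keratins, Krt6a, Krt6b and Krt16 were higher in all 3 treated groups than in Vehicle, and Krt17 was not. Krt6a, a type II keratin made in wounded epidermis, measured 1102, 1099 and 1068 TPM in Vehicle and 4030, 3882 and 4120 TPM with UK5099. It measured 2067, 2004 and 2094 TPM with butyrate and 5051, 4318 and 4421 TPM with the combination. The 4 groups did not overlap, and replicate 1 of the combination lay highest, as it did for Krt6b and Krt16. For Krt6a the fit gave 1.88 ± 0.05 with UK5099, 0.91 ± 0.05 with butyrate and 2.07 ± 0.05 with both. Without replicate 1 of the combination, the coefficients for both drugs were 2.00 for Krt6a, 7.90 for Krt6b and 4.20 for Krt16.

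Krt6b, its near copy, covered the widest range. It was measured at 0.472, 0.391 and 0.602 TPM in Vehicle, which is between 10.7 and 21.4 estimated fragments. It measured 82.4, 91.5 and 92.9 TPM with UK5099, 8.46, 9.01 and 8.09 TPM with butyrate, and 443, 350 and 358 TPM with the combination. Each group was clear of the next, in the order Vehicle, butyrate, UK5099, combination. The ratio of mean TPM to that in Vehicle was 182 for UK5099, 17.5 for butyrate and 785 for both drugs. The coefficients, on the log2 scale, were 5.92 ± 0.09, 2.68 ± 0.09 and 8.01 ± 0.09, which are folds of 60.4, 6.40 and 257. These folds are smaller than the ratios of mean TPM because of the pseudocount of 1. The part of shared reads in the Krt6b values was not tested.

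Krt16, the usual type I partner of Krt6 in injured skin, followed the same order of groups. It measured 48.4, 48.7 and 51.2 TPM in Vehicle, 128, 133 and 140 TPM with butyrate, 459, 501 and 504 TPM with UK5099, and 1024, 928 and 929 TPM with the combination. The 4 groups did not overlap. The fitted differences were 3.28 ± 0.05 for UK5099, 1.42 ± 0.05 for butyrate and 4.25 ± 0.05 for both, and the part of reads shared with Krt14 or Gm11597 in them was not tested.

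Krt17, a type I keratin of injured epidermis and hair follicles, differed in pattern from the other 6. It measured 463, 448 and 464 TPM in Vehicle, 431, 447 and 443 TPM with UK5099, and 461, 497 and 491 TPM with the combination. With butyrate alone it measured 219, 218 and 233 TPM, below every other sample. The UK5099 samples all lay below Vehicle, but the groups nearly met, at 447 and 448 TPM. Against Vehicle, Krt17 had −0.06 ± 0.03 for UK5099, −1.03 ± 0.03 for butyrate and 0.07 ± 0.03 for both. The UK5099 coefficient was 0.092 ± 0.033 after median of ratios scaling, so its sign depended on the scaling. The butyrate coefficient lay just past the limit of 1, and was short of it under 5 other scalings, from −0.92 to −0.72.

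With UK5099 against Vehicle, 5 of the 7 members were called higher, whereas 0.928% of all genes were, and no member was among the 0.912% called lower. With butyrate, 2 members (Krt6b and Krt16) were called higher, beside 1.13% of all genes, and 1 (Krt17) lower, beside 2.42%. With the combination, 5 members were called higher, beside 1.79% of all genes, and none was among the 4.63% called lower. Since the members were chosen from these contrasts, nothing is read from those shares. The butyrate calls moved with the scaling: 4 members were called higher and none lower after median of ratios scaling, where Krt5 (1.09 ± 0.02) and Krt6a (1.23 ± 0.05) passed and Krt17 did not. That scaling brought the median coefficient of the 13345 genes that averaged 1 TPM or more from −0.30 to −0.03 for butyrate, from −0.12 to 0.00 for UK5099 and from −0.41 to −0.03 for the combination. The balance of calls over all genes moved with it, from 50.4% higher to 64.0% for UK5099, from 31.8% to 58.3% for butyrate and from 27.9% to 63.8% for the combination.

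**Figure D2:**
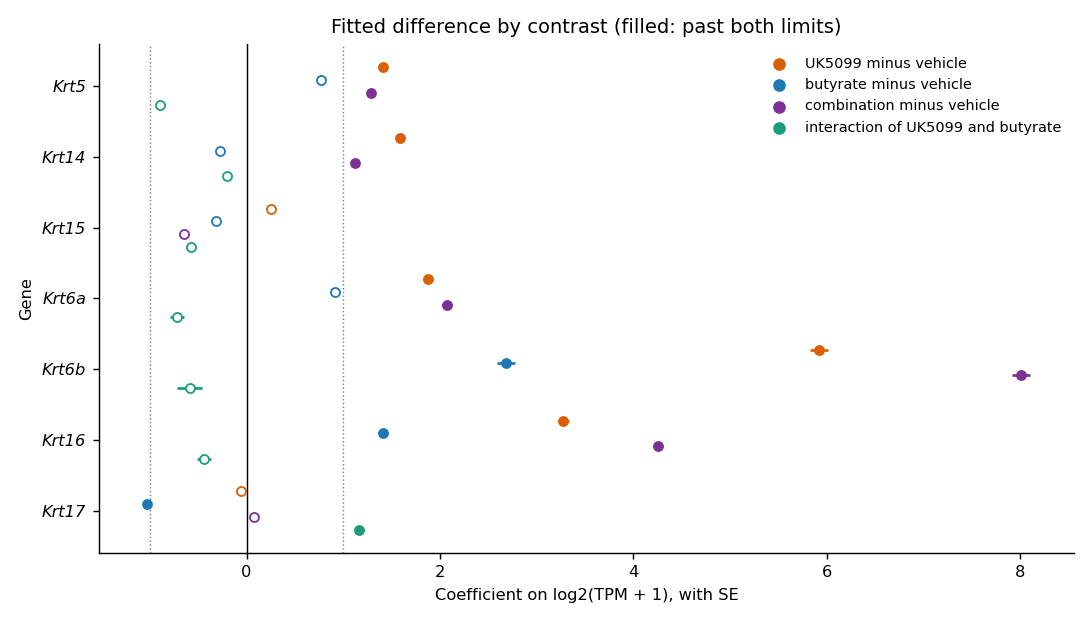
Coefficient on log2(TPM + 1) of each keratin, with SE bars, for each treatment against Vehicle and for the interaction. Filled points passed both limits, and dotted lines mark coefficients of −1 and 1. Krt6b and Krt16 lie farthest to the right in the combination, and Krt17 alone has a filled interaction point.

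Adding UK5099 to butyrate, read as the combination against butyrate alone, gave positive coefficients for 6 members. Krt6b had 5.33 ± 0.09, Krt16 2.84 ± 0.05, Krt14 1.39 ± 0.03, Krt6a 1.16 ± 0.05, Krt17 1.11 ± 0.03 and Krt5 0.52 ± 0.02. Krt15 was the exception, at −0.33 ± 0.03. The fit called 5 members higher, beside 0.551% of all genes, and none of the 0.357% called lower was a member.

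Adding butyrate to UK5099 gave 1 call among the members, Krt6b. The stress keratins all had positive coefficients, of 2.09 ± 0.09 for Krt6b, 0.97 ± 0.05 for Krt16, 0.19 ± 0.05 for Krt6a and 0.13 ± 0.03 for Krt17. The basal keratins all had negative ones, of −0.13 ± 0.02 for Krt5, −0.47 ± 0.03 for Krt14 and −0.90 ± 0.03 for Krt15. The signs did not divide the basal from the stress keratins under every scaling, since Krt5 had 0.19 ± 0.02 after median of ratios scaling. Krt6b was called higher, beside 0.823% of all genes, and no member was among the 1.15% called lower. Krt16 lay just short of the limit of 1, and was called under median of ratios scaling, at 1.29 ± 0.06.

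Between the single treatments, every member was lower with butyrate than with UK5099. The coefficients of butyrate minus UK5099 ran from −3.24 ± 0.09 for Krt6b to −0.57 ± 0.03 for Krt15. Krt16 and Krt14 both had −1.86, with SE of 0.05 and 0.03. The 3 called lower were Krt14, Krt6b and Krt16, beside 1.18% of all genes, and no member was among the 0.681% called higher. Krt17, at −0.98 ± 0.03, and Krt6a, at −0.96 ± 0.05, lay just short of the limit. Without replicate 3 of the butyrate group, Krt17 passed it, at −1.01 ± 0.03.

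The interaction asks whether the combination departs from the sum of the single coefficients. Krt17 alone was called, at 1.17 ± 0.05, beside 0.515% of all genes called higher. Krt17 was lower with butyrate where UK5099 was absent, and not where it was given. The other 6 coefficients were negative, from −0.90 ± 0.02 for Krt5 to −0.20 ± 0.05 for Krt14, and none was among the 0.499% of genes called lower. The Krt6b interaction, −0.59 ± 0.13, was the least stable, since with a pseudocount of 0.1 it was −1.79 ± 0.19 and was called.

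**Figure D3:**
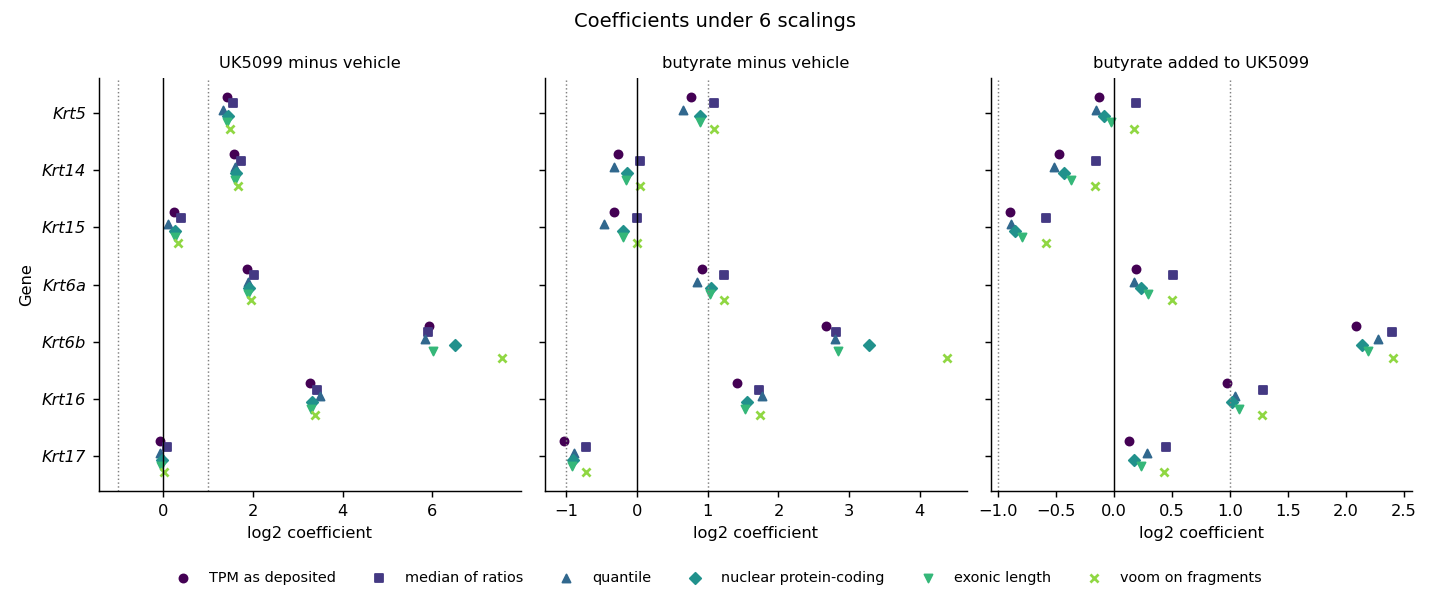
Coefficients of the 7 keratins for UK5099, for butyrate and for butyrate added to UK5099, each under 6 scalings of the same data. Solid lines mark 0 and dotted lines mark −1 and 1. Krt14 and Krt5 cross 0 in the butyrate panels, whereas the UK5099 coefficients of Krt6a, Krt6b and Krt16 stay above 1.

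Levels between genes were compared per exonic length, as TPM recomputed with the exonic length of 23913 genes. The order in Vehicle was Krt15, Krt5, Krt14, Krt6a, Krt17, Krt16 and Krt6b, from 4029 ± 64.1 to 0.526 ± 0.117 (SD, n = 3). With UK5099, Krt5 (7481 ± 12.3) and Krt14 (7201 ± 188) came first. The highest Krt14 sample, 7395, lay below the lowest Krt5 sample, 7469, and within a sample Krt5 stood to Krt14 at between 1.013 and 1.066. This order depended on the lengths used, since with genomic span the ratio was 0.978 ± 0.025. With butyrate, Krt5 (5116 ± 106) led, ahead of Krt15 (3503 ± 35.1) and Krt6a (2287 ± 48.1). With the combination, Krt5 (7366 ± 14.2) led, and Krt14 (5587 ± 153) and Krt6a (5140 ± 414) overlapped. Krt6b was last in all 4 groups, at 450.0 ± 57.8 in the combination. Krt16 passed Krt17 in the combination, at 1061 ± 55.2 against 922 ± 41.7, and in no other group, although with genomic span it passed Krt17 with UK5099 too.

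As a share of all keratin-family transcripts per exonic length, the 7 members made up 49.5% ± 0.332 in Vehicle and 77.1% ± 0.820 with UK5099. They made up 63.7% ± 0.296 with butyrate and 79.9% ± 0.927 with the combination. Krt6a, Krt6b, Krt16 and Krt17 together held 8.78% ± 0.124 in Vehicle, 17.1% ± 0.213 for UK5099, 13.4% ± 0.164 for butyrate and 25.9% ± 0.543 for both drugs. The basal 3, Krt5, Krt14 and Krt15, held 40.8% ± 0.254, 60.04% ± 0.688, 50.3% ± 0.266 and 54.0% ± 1.45 in the same order. The stress keratins thus held their largest share in the combination and the basal keratins theirs with UK5099 alone. The simple keratins Krt8, Krt18 and Krt19 moved the other way, from 38.7% ± 0.275 in Vehicle to 15.6% ± 0.640 for UK5099, 24.5% ± 0.169 for butyrate and 11.8% ± 0.276 for both drugs. These are parts of the same total, so a larger share for the members leaves less for the others. All keratins together made up 2.24% of transcripts per exonic length in Vehicle, 3.25% for UK5099, 2.13% for butyrate and 2.92% for both drugs. A processed pseudogene, Krt8-ps, held 5.70% ± 0.088 of the family in Vehicle. Its level was a similar percent of Krt8 in every group, at 62.4% in Vehicle, 65.0% for UK5099, 63.8% for butyrate and 62.0% for both drugs. The part of Krt8 reads in its values was not tested. Leaving Krt8-ps out moved the share of the 7 members in Vehicle to 52.5% ± 0.373.

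**Figure D4:**
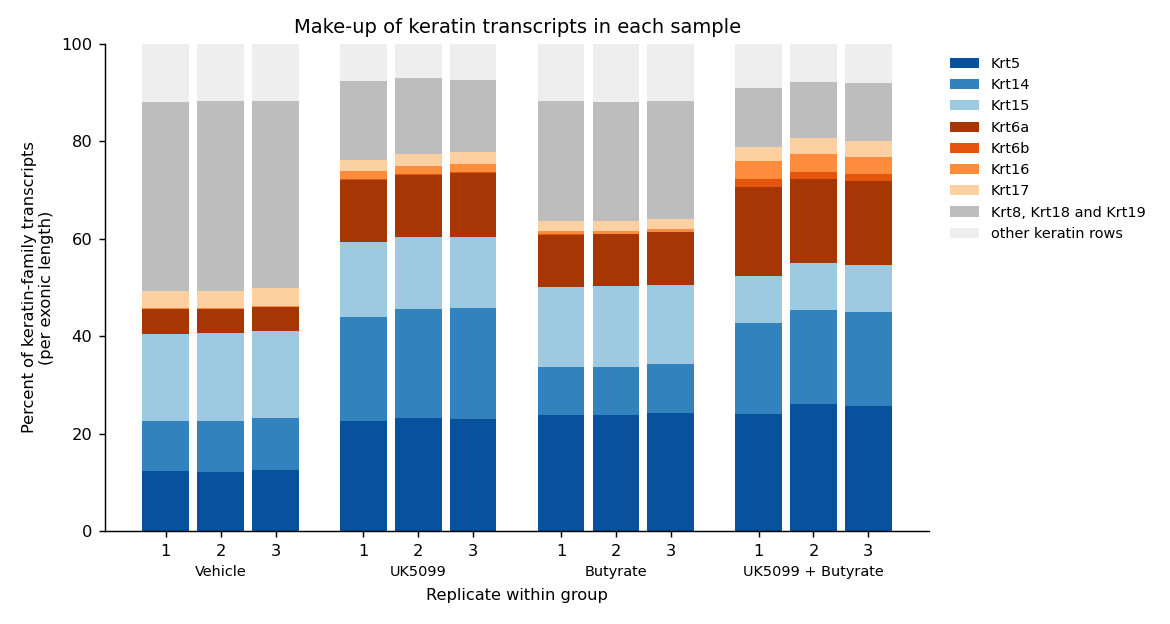
Percent of keratin-family transcripts per exonic length held by each member, by Krt8, Krt18 and Krt19, and by the remaining keratin rows, as 1 stacked bar per sample. Blue marks the basal members, orange the stress members and grey the rest. The orange part is largest in the combination, at 25.9% on average, and the share of the simple keratins goes from 38.7% in Vehicle to 11.8% there.

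Type II members stood to type I members at 0.536 ± 0.002 in Vehicle, 0.881 ± 0.006 for UK5099, 1.20 ± 0.016 for butyrate and 1.25 ± 0.012 for both drugs. The balance between the partner types therefore differed among the groups by more than their spread. Krt5 to Krt14, the basal pair, stood at 1.17 ± 0.018 in Vehicle, 1.04 ± 0.026 for UK5099, 2.41 ± 0.017 for butyrate and 1.32 ± 0.038 for both drugs. Krt14 to Krt15 stood at 0.585 ± 0.017, 1.48 ± 0.081, 0.606 ± 0.011 and 1.99 ± 0.022. That ratio was above 1 in the 6 samples given UK5099 and below 1 in the 6 that were not.

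Krt16 to Krt17 stood at 0.062 ± 0.002 in Vehicle, 0.641 ± 0.022 for UK5099, 0.346 ± 0.007 for butyrate and 1.15 ± 0.114 for both drugs. With genomic span these were 0.108, 1.11, 0.598 and 1.99, in the same order of groups. Krt6b was 0.047% ± 0.011 of Krt6a in Vehicle, 2.33% ± 0.167 for UK5099, 0.436% ± 0.034 for butyrate and 8.73% ± 0.405 for both drugs. Each group was clear of the others in both measures. Krt6b remained far below Krt6a in every sample.

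**Figure D5:**
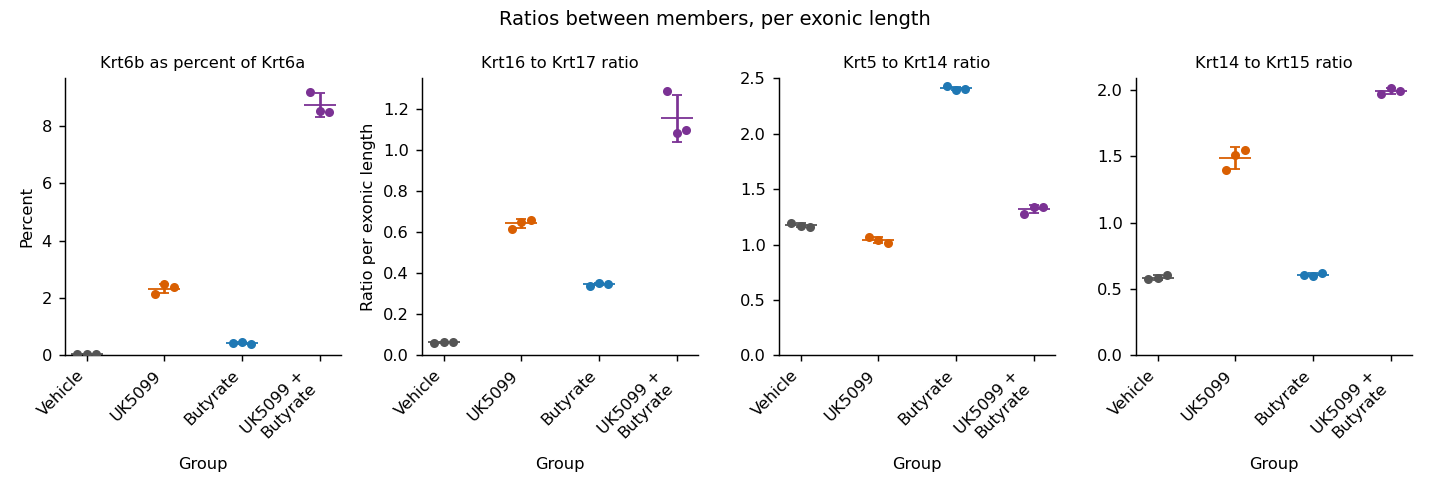
Ratios between members per exonic length, from 0 on each vertical axis, with points for samples and bars for mean and SD (n = 3). Krt6b as a percent of Krt6a and the Krt16 to Krt17 ratio are highest in the combination, the Krt5 to Krt14 ratio is highest with butyrate alone, and Krt14 exceeds Krt15 only where UK5099 was given.

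Markers of both basal and luminal prostate epithelium were measured in every group. Levels in this check are TPM as deposited, divided by gene span. Shares between genes and the limit of 1 TPM therefore depend on gene length as well as on abundance. Differences in the sums between groups depend on the scaling too, and the sums were not rescaled. Median of ratios scaling moved the median coefficient of the 13345 genes from −0.30 to −0.03 for butyrate. For the combination it moved that median from −0.41 to −0.03. All 7 basal markers listed for the check were above 1 TPM in each group, but 3 of them, Krt5, Krt14 and Krt15, are members and held between 96.0% and 98.0% of the summed TPM. The other 4, Trp63, Itga6, Itgb4 and Cdh3, summed to between 269 and 273 TPM in Vehicle, 310 and 332 with UK5099, 178 and 184 with butyrate, and 210 and 228 in the combination. Trp63, the transcription factor that defines basal cells, averaged 5.23 TPM in Vehicle. The summed luminal markers, Krt8, Krt18, Krt19, Epcam, Cd24a and Prom1, ranged from 5147 to 5347 TPM in Vehicle, from 3048 to 3185 with UK5099, from 2863 to 2895 with butyrate and from 1791 to 2005 TPM in the combination. Of 6 fibroblast markers, 5 were under 1 TPM in each group, with sums up to 2.42 TPM in Vehicle and 10.97 with butyrate. The 4 endothelial markers were under 1 TPM in each group, and none was at 0 in a group. Of 3 blood markers in the table, Ptprc and Cd3e were under 1 TPM, while the sum, nearly all Cd68, was at most 25.1 TPM in Vehicle and between 87.0 and 97.7 TPM in the combination. The part of these in the keratin results was not tested.

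Among the other 33 keratin rows, 5 were called higher and 2 lower with UK5099, 6 and 3 with butyrate, and 8 and 5 with the combination. Of all genes, 0.928% were called higher and 0.912% lower with UK5099, and 1.13% and 2.42% with butyrate. With the combination the shares were 1.79% and 4.63%. Each list count from here on stands beside these shares. The lists were written with earlier results of these data known, so nothing is read from the counts. After median of ratios scaling, the combination had 11 higher and 4 lower. The other keratins had a median coefficient of 0.05 for UK5099, 0.06 for butyrate and 0.24 for both drugs, against −0.03, −0.07 and −0.11 over all genes. Suprabasal keratins are those of cells that have left the basal layer. Of 8 in the table, 4 were called higher for UK5099, 5 for butyrate and 4 for both drugs, and none lower. Krt80, at 3.33 TPM in Vehicle, had −0.28 with UK5099 and −0.23 with butyrate, short of the limit, and Krt76 and Krt77 stayed under 1 TPM. Krt13, of stratified mucosa, went from 11.6 ± 1.17 TPM in Vehicle to 264 ± 25.0 for UK5099, 97.3 ± 1.20 for butyrate and 416 ± 81.5 for both drugs. Krt10, of upper epidermis, had its highest level with UK5099 alone, at 118 ± 12.5 TPM, against 35.8 ± 5.98 with the combination. Of 6 simple keratins, 1 was called higher and 1 lower with UK5099, 1 and 2 with butyrate, and 1 and 3 with the combination. Krt8 was called lower in all 3 treated groups, at −1.33 ± 0.03 with UK5099, −1.73 ± 0.03 with butyrate and −2.94 ± 0.03 with both. Krt20 was called higher with UK5099, at 26.4 TPM against 1.94 in Vehicle. Krt23 was called higher with butyrate and with both, at 1.21 ± 0.08 and 1.77 ± 0.08, and was at most 7.40 TPM on average.

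Of 22 other genes of basal epithelium, 4 were called higher with UK5099 and none lower. With butyrate 3 were called higher and 7 lower, a balance that turned to 6 and 3 after median of ratios scaling. The list had a median coefficient of 0.38 for UK5099, −0.46 for butyrate and −0.21 for both drugs, against −0.03, −0.07 and −0.11 over all genes. Over the 13345 genes that averaged 1 TPM or more, the medians were −0.12, −0.30 and −0.41. For both drugs the list therefore lay below the median of all genes but above that of the genes at 1 TPM or more. Col17a1, a collagen of the hemidesmosomes to which Krt5 and Krt14 filaments attach, had coefficients of 1.72 with UK5099 and 0.81 with butyrate. Lama3, which encodes a laminin chain of the basement membrane, was called lower with butyrate, at −1.54, with an adjusted p-value of 2.19e-09 in the limma fit.

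Of 15 partners of keratin filaments, 2 were called higher and 1 lower with UK5099, and 1 higher and 3 lower with butyrate. Evpl, a plaque protein of the cornified envelope, was higher in all 3 treated groups, from 16.6 TPM in Vehicle to 62.8 for UK5099, 45.3 for butyrate and 85.0 for both. Dsp, which anchors keratins at desmosomes, had 0.87 with UK5099 and 0.25 with butyrate, and Plec, which links keratins to hemidesmosomes, had 0.05 and −0.96. None of the last 4 coefficients passed the limit of 1.

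Of 19 transcription factors tied to these keratins, 1 was called higher for UK5099, 2 for butyrate and 2 for both drugs. The 1 called lower was Rela, a subunit of NF-κB, at −1.07 ± 0.02 in the combination. After median of ratios scaling the counts called higher were 3, 5 and 7, and none was called lower. Fosl1, an AP-1 subunit, was the 1 with UK5099, at 35.1 TPM against 13.0 in Vehicle, and its butyrate coefficient was −0.40. Fos and Myc were called higher with butyrate, at 1.02 and 1.18. Klf4, a factor of the upper epidermis, was called only in the combination, at 1.24, with 0.98 and 0.97 in the single treatments.

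Among 22 cytokines, growth factors and alarmins tied to stress keratins, 7 were called higher and 2 lower with UK5099. The counts were 4 and 5 with butyrate and 7 and 5 with the combination, and 6 and 1 and then 8 and 2 after median of ratios scaling. S100a8 and S100a9, partner alarmin proteins of inflamed skin, had the same order of groups as Krt6b and Krt16. S100a8 measured 2.45 TPM in Vehicle, 14.2 for butyrate, 34.6 for UK5099 and 149 for both, and S100a9 measured 1.26, 13.9, 30.3 and 170.1 TPM. Cxcl1, a neutrophil chemokine, was called lower in all 3, at −1.14, −1.59 and −2.78. Of 16 proliferation genes, 7 were called lower with the combination. After median of ratios scaling 0 of them passed in the limma fit, although all 16 were still lower, each with an unadjusted p below 0.05.

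The genes most like each member were taken as the 3 with the highest Pearson r over the 12 samples on log2(TPM + 1). They came from 1890 genes that averaged 1 TPM or more and whose group means spanned 1 or more on that scale. The 12 samples fall into 4 groups, so r mostly describes the group pattern. Krt6b and Krt16 were each other's nearest gene, at r = 0.999, and both were followed by Elovl4, a very long chain fatty acid elongase, and Il36g, an epidermal cytokine. Krt6a was nearest to Fa2h, a fatty acid hydroxylase, Perp, a desmosome protein, and Nqo1, a quinone reductase, at r from 0.997 to 0.999. Krt5 was nearest to Ptgs1, Urah and Col17a1, at r from 0.995 to 0.996. Krt14 was nearest to Nat8l, Ccdc9b and Prl2c3, at r from 0.988 to 0.995. Krt15 was nearest to Foxq1, a forkhead factor, Ephb6 and Itpripl1, at r from 0.983 to 0.991. Krt17 was nearest to Sprr2e, a cornified envelope precursor, at r = 0.984, then to Ifi202b and Aldh1a3 at 0.927 and 0.925. Some of these genes were near the floor in Vehicle, where the pseudocount of 1 weighs on the pattern. Fa2h averaged 0.136 TPM there, Il36g 0.104, Elovl4 0.385, Nat8l 0.487 and Prl2c3 0.769.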

How the data were processed

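Total RNA of 12 organoid samples was sequenced as read pairs. Per the labels, a KAPA RNA Hyper Kit was used with ribosomal RNA depletion and then mRNA enrichment, whereas the study's methods name a KAPA Stranded mRNA-Seq Kit. The authors deposited TPM per gene. The submitters' processing notes name STAR 2.7.9a, Partek and GRCm39, whereas the study's methods name fastp, STAR and RSEM on GRCm38. For 100% of genes the table's length equals stop minus start, so TPM were taken as fragments over genomic span, and fragments were recovered from the steps of low values. Of protein-coding values under 1000 fragments, between 75.4% and 76.6% were whole. Exonic lengths came from GENCODE M21, by gene ID, for 23913 genes (96.9%).

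Following the study's model, limma 3.58.1 (R 4.3.3) was fitted to log2(TPM + 1) of all 24674 genes with UK5099, butyrate and interaction terms. The pseudocount of 1 was chosen here. The fit was tested on simulated data for 24674 genes, with 200 genes per treatment changed up or down at random. The change was a fixed amount larger than the limit of 1 on the log2 scale. Of changed genes at 4 TPM or more it found 72 of 73 for UK5099 and 59 of 60 for butyrate. Of all 200 changed genes it found 112 and 86, with 0 false calls. Recovery of changes close to the limit was therefore not tested. No shift of most genes was simulated, so the false calls that scaling could bring were not tested.

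Members and gene lists were chosen with earlier results of these data known. Genes named by rule were the 7 members, up to 4 genes per list that reach 10 TPM with the largest single-treatment coefficients, and the 3 genes most like each member. Some further genes were named outside that rule, such as Krt23, Krt76 and Krt77, which did not reach 10 TPM. Marker lists were summed per sample. All replicates of a group differed by more than sampling noise, so none was counted as a repeat. Alternatives covered pseudocounts, filters, scalings, priors, voom on fragments, a replicate block and each sample left out. Python 3.11.15, pandas 2.3.3, numpy 2.4.6, Biopython 1.88 and matplotlib 3.10.9 were used. The values of 1 gene of the basal epithelium list are not reported here.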

Additional observations from a re-analysis of the deposited data

Results flagged for a closer look

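Krt17 responded to UK5099 differently in the presence of butyrate in the limma fit, with an interaction coefficient of 1.17 ± 0.05 (SE). The UK5099 coefficient was −0.06 ± 0.03 without butyrate and 1.11 ± 0.03 with it, on log2(TPM + 1). All 3 combination samples lay above all 3 butyrate samples. With any 1 sample left out the interaction was between 1.15 and 1.20. Groups of 3 samples were not screened for single outlying samples.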

How the results depend on the processing

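Counts of members called kept within 1.5 times under every alternative for UK5099, butyrate and the combination against Vehicle, for UK5099 added to butyrate and for butyrate minus UK5099. For butyrate the members called were not the same, since 2 higher and 1 lower became 2 and 0 with quantile, 3 and 0 with nuclear protein-coding and exonic length, and 4 and 0 with median of ratios scaling and voom. Krt17 lost its call under all 5 (−0.88, −0.91, −0.92, −0.72 and −0.72). Krt6a gained one in 4 and Krt5 in 2. Over all genes, the calls for the combination were 1585, of which 442 higher, against 1132 and 722 with median of ratios scaling and 3441 and 1925 with voom. For butyrate, 31.8% of calls were higher, against 64.8% with voom. For butyrate added to UK5099 the count was 2, not 1, with median of ratios, quantile, nuclear protein-coding and exonic length scaling and with voom. For the interaction it was 2, not 1, with pseudocounts of 0.1 and 0.01 and with nuclear protein-coding genes. The signs of 3 coefficients turned with median of ratios scaling and voom: Krt17 for UK5099 (0.092 and 0.020), Krt14 for butyrate (0.046 and 0.044) and Krt5 for butyrate added to UK5099 (0.19 and 0.18). With a replicate block the counts of members called stayed at 5, 3, 5, 5, 1, 3 and 1 over the 7 contrasts. Same-numbered samples did not deviate together, at correlations from −0.107 to 0.029 over 18 pairs, so the numbers were not taken to pair samples. With each sample left out, counts did not change, except that butyrate minus UK5099 had 4, not 3, without replicate 3 of butyrate. The causes were not tested.

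Counts for gene lists moved more. Other keratins had 11 called for UK5099 (pseudocount 0.01), 15, 16 and 17 for butyrate (pseudocounts 0.1 and 0.01, voom) and 21 and 22 for the combination (pseudocount 0.01, voom). Simple keratins had 4 for UK5099 (quantile), suprabasal keratins 7 for the combination (voom) and filament partners 2 for butyrate (median of ratios, quantile). Transcription factors had 2 or 3 for UK5099 under 7 settings and 2 without replicate 2 of UK5099, where the other samples left out gave 1. They had 5, 4, 4, 4 and 6 for butyrate and 7 and 6 for the combination. Proliferation genes had 0 (median of ratios, quantile, voom) and 4 (exonic length) for the combination.

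With genomic span in place of exonic length, the share of the 7 members was 52.5%, 80.4%, 69.3% and 84.2% in Vehicle, UK5099, Butyrate and the combination. The stress keratins held 10.3%, 21.7%, 17.9% and 32.7%, and the basal keratins 42.2%, 58.7%, 51.4% and 51.5%. With Krt8-ps left out, an alternative chosen after seeing the data, the share of the 7 was 52.5%, 78.4% and 65.1% in the first 3 groups, that of the stress keratins 9.31%, 17.3% and 13.7%, and that of the basal keratins 43.2%, 61.1% and 51.3%. Of the 3 genes most like each member, 1 or 2 remained after median of ratios scaling.

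Krt6b in Vehicle rests on between 10.7 and 21.4 estimated fragments.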
